A study of Mus musculus with 12 samples.

Results

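The comparison described here set mice on a high-fat diet with a sugar drink (HF_Sugar) against mice on the same high-fat diet with plain water (HF), and asked what the drink added in the ileum, the last stretch of the small intestine. Its members were the 6 of the 12 libraries of the series whose labels name a high-fat diet, 3 in HF_Sugar and 3 in HF, with all 44205 genes of the deposited table, of which 17662 were expressed enough to be tested. All mice were C57BL/6 and 16 weeks old, having been put on their diets at 6 weeks of age for 10 weeks. HF_Sugar mice ate a diet with 60% of its energy from fat and drank a 23% (w/v) sugar solution, and HF mice ate the same diet and drank plain water. The other 6 libraries came from mice on a normal-fat diet, 3 with the same sugar drink (NF_Sugar) and 3 with plain water (NF), and were used for the spread between libraries and for the test of whether the effect of the drink differed between diets. RNA was isolated from each mouse separately, so that each library is 1 mouse, and libraries were taken at random from samples with an RNA integrity number above 8. The whole ileum was homogenised, so that fewer cells of a type and less RNA per cell cannot be told apart.

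The ileal wall holds absorptive enterocytes that digest sugars and peptides at their brush border, take up lipid and recover bile acids, together with secretory cells and a dense population of immune cells. Enterocytes answer adherent bacteria and interferon with antimicrobial proteins, oxidase subunits and antigen-presenting molecules. They also make cholesterol when their sterol supply is low, through the transcription factor SREBP2, and burn fatty acids under the control of PPAR receptors.

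Levels were given as RPKM, reads scaled to the length of the gene and to the total reads of the library, and differences were taken on the log2(RPKM + 1) scale, which understates the change of low genes. The reads recovered from the deposited values came to between 16280000 and 27390000 in the HF_Sugar libraries and between 20210000 and 23900000 in the HF libraries. All 18 genes listed as ileum markers were expressed. Their summed level ran from 14100 to 19100 RPKM in HF_Sugar and from 14300 to 25200 RPKM in HF. The first principal component carried 40.1% of the variance over the 12 libraries and set 4 libraries apart, 1 in each group, among them HF_Sugar replicate 2 and HF replicate 2. Genes of the upper small intestine varied between the mice of 1 group. Lct, the lactase of the proximal intestine, stood at 5.27, 1.63 and 0.719 RPKM in HF_Sugar and at 57.8, 0.7 and 22.8 RPKM in HF. Gata4, a transcription factor of the proximal intestine, stood at 2.37, 0.776 and 0.456 RPKM in HF_Sugar, against 5.02, 0.64 and 4.5 RPKM in HF. HF replicates 1 and 3 were therefore high in these genes and HF replicate 2 was not. Car1, a colonic carbonic anhydrase, reached 34 RPKM in HF_Sugar replicate 3 and was below 0.1 RPKM in the other 5 libraries. The summed level of the genes listed for the colon ran from 1880 to 2100 RPKM in HF_Sugar and from 1190 to 1660 RPKM in HF. Of the 8 tested, 6 were higher and 2 lower in HF_Sugar (median difference 0.39). Saa1, described below with the response to microbes, is also on that list.

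Across all genes a single gene, Il1b, was called at an adjusted p below 0.05, which is 0.00566% of the genes tested (limma with Benjamini-Hochberg adjustment over all 17662 genes). The smallest adjusted p of any other gene was 0.356, so the values given below for other genes describe differences that did not pass the test. At an unadjusted p below 0.05 there were 777 genes (4.4%), of which 343 were higher in HF_Sugar (1.94%) and 434 were lower (2.46%). Under upper-quartile scaling the split was 440 higher to 347 lower, so that the balance of directions turned with the scaling. The 6 libraries fitted alone gave 779 genes at an unadjusted p below 0.05 and 0 called. Adding the replicate number as a block to these 6 libraries gave 1640 genes, 626 higher and 1014 lower, and 0 called. The 3 HF_Sugar values lay wholly above the 3 HF values for 859 genes (4.86%) and wholly below for 938 genes (5.31%). These were counted on the values scaled between libraries, which can differ slightly from the RPKM printed here. Genes named below for their smallest unadjusted p were drawn only from such genes, so their lack of overlap was a condition and not a finding. With 3 mice against 3, an exact two-sided permutation test of a single gene cannot give a p below 0.1. The median difference over all genes tested was -0.004, with 48.9% of genes above 0 and 51% below, and this is the background against which gene groups are described. On the normal-fat diet, NF_Sugar against NF gave 0 called genes (0%) and 329 genes at an unadjusted p below 0.05 (1.86%), 143 higher (0.81%) and 186 lower (1.05%). There 48.8% of genes were above 0 and 51.1% below, and 6.58% did not overlap between the groups, 3.4% higher and 3.18% lower. The test of the difference between the diets, as an interaction term, gave 0 called genes (0%), 449 at an unadjusted p below 0.05 (2.54%, with 1.32% above 0 and 1.22% below) and a smallest adjusted p of 0.586, and 49% of all its values were above 0 and 50.9% below.

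Il1b, which encodes the inflammatory cytokine interleukin-1 beta, was the gene that rose. It lies on chromosome 2 between 129364570 and 129371139 (GRCm38). Its level was 2.88, 2.71 and 2.96 RPKM in HF_Sugar and 0.263, 0.606 and 0.778 RPKM in HF. The groups did not overlap, and the difference was 1.31 ± 0.14 on the log2 scale (SE, adjusted p = 0.0366). The difference was -0.05 between NF_Sugar and NF, and the interaction was 1.37 ± 0.2 (SE, adjusted p = 0.586). When the 6 libraries of HF_Sugar and HF were fitted alone, the call of Il1b was lost (adjusted p = 0.644). It stayed lost when the replicate number was added to that fit as a block (adjusted p = 0.372). In the fit with all 4 groups, the call was also lost when any 1 of these 6 libraries was left out, with adjusted p between 0.0511 and 0.33.

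The deposited values of Il1b were unusual in form, which bears on this call. Converted back to reads they were 123.92, 141.46 and 92.05 in HF_Sugar, where whole reads would be found if reads had been counted singly, and 12, 25 and 30 in HF. The values of HF_Sugar replicates 1 and 2 were written with 7 significant digits, and of the 364129 values above 0 in the table only 17 were, the rest having at most 6. Of these 17, 12 lay in HF_Sugar libraries, 0 in HF, 0 in NF_Sugar and 5 in NF. Among the genes these 12 values belonged to were Cd40, Gcg, Ifng, Il1b, Il23r, Il7r, Nlrp3, Tlr8 and Tnf, of which most act in immunity. Fractions of a read as such were not limited to HF_Sugar. Among genes with few enough reads to tell, 0.978% had fractions in HF_Sugar and whole reads in the other 9 libraries, and the same pattern was found for HF in 0.895%, for NF_Sugar in 0.839% and for NF in 2.11%. What gave rise to the 7-digit values was not tested, and without the genes that carry irregular values 0 genes were called.

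Inflammatory mediators were higher in part. Of 19 proinflammatory cytokines and chemokines tested, Il1b included, 13 were higher and 6 lower in HF_Sugar, 6 were higher at an unadjusted p below 0.05 against 1.94% of all genes, and the median difference was 0.32. The list held 35 genes, of which those too low were not tested. Of the 6 libraries, Ccl2 and Ifng reached the filter's 0.5 RPKM in HF_Sugar only, so the count and median draw on genes admitted through the higher group. Several genes of the list were named in the report of the study from these same libraries, so their direction is not independent evidence. Ccl2, a chemokine that draws monocytes, stood at 1.95, 1.93 and 1.13 RPKM in HF_Sugar and at 0.184, 0.447 and 0.261 RPKM in HF. The groups did not overlap (difference 1.02 ± 0.17, adjusted p = 0.422), and the reads behind these values were whole in all 6 libraries. Cxcl10, an interferon-induced chemokine for T cells, stood at 3.83, 2.28 and 4.01 RPKM in HF_Sugar and at 0.985, 1.13 and 0.901 RPKM in HF. Here too the groups were apart (1.09 ± 0.19, adjusted p = 0.422), but the reads of HF_Sugar replicates 1 and 2 were 194.41 and 140.68, not whole. Ifng, the T and NK cell cytokine that induces Cxcl9 and Cxcl10, was at 0.773, 0.528 and 0.732 RPKM in HF_Sugar and at 0.0323, 0.0357 and 0.191 RPKM in HF (0.62 ± 0.1, adjusted p = 0.356), with 22.54, 18.73 and 15.44 reads in HF_Sugar. Tnf, the cytokine tumour necrosis factor, was at 1.93, 0.746 and 0.912 RPKM in HF_Sugar and at 0.511, 0.367 and 0.513 RPKM in HF (0.54 ± 0.17). Its reads in HF_Sugar were 71.18, 33.47 and 24.34, again not whole. Il18, an epithelial cytokine of the interleukin-1 family, was at 2.8, 8.99 and 3.63 RPKM in HF_Sugar and at 9.74, 4.35 and 13.2 RPKM in HF, so the groups overlapped. The median of the group was 0.1 without HF_Sugar replicate 3, 0.17 without HF replicate 1 and 0.04 without the genes that carry irregular values, with 9 higher and 6 lower.

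**Figure D1:**
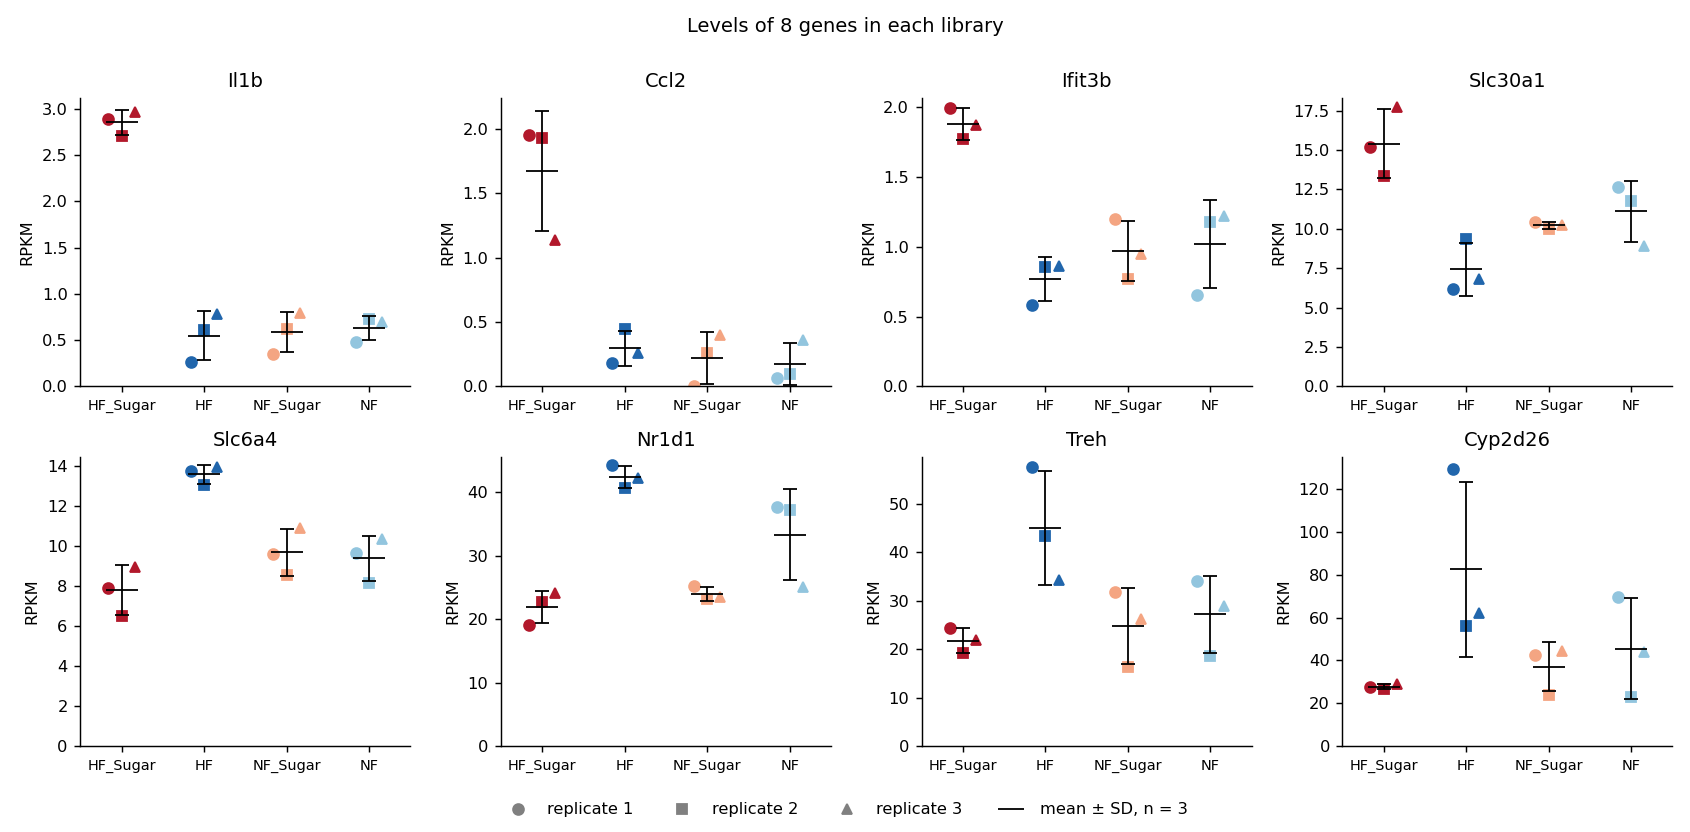
RPKM of 8 genes in each of the 12 libraries, by group, with symbols for replicates and bars for the mean ± SD of 3 libraries. Il1b, Ccl2, Ifit3b and Slc30a1 were higher in all 3 HF_Sugar libraries than in any HF library, and Slc6a4, Nr1d1, Treh and Cyp2d26 were lower. Of these, only Il1b passed the test. For Il1b, Ifit3b, Slc30a1, Slc6a4 and Nr1d1, named by smallest p, a lack of overlap was a condition of that rule.

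Genes of leukocytes were among those with the smallest unadjusted p. Cd40, the costimulatory receptor of B cells and dendritic cells, was at 1.16, 1.69 and 1.88 RPKM in HF_Sugar and at 0.725, 0.665 and 0.465 RPKM in HF (0.65 ± 0.12, adjusted p = 0.429), with 7-digit values in HF_Sugar replicates 2 and 3. Ccr7, the receptor by which dendritic cells and lymphocytes home to lymph nodes, was at 4.78, 2.96 and 3.45 RPKM in HF_Sugar and at 2.07, 1.47 and 1.98 RPKM in HF (0.71 ± 0.16), with 213.19, 160.59 and 111.21 reads in HF_Sugar. Irf8, a transcription factor of dendritic cells and macrophages, was at 19.5, 13.9 and 22.9 RPKM in HF_Sugar and at 9.48, 12.7 and 10.6 RPKM in HF (0.7 ± 0.19). In all 3 genes, and in the 3 that follow, the groups did not overlap, but the rule that named genes by smallest p required this. Csf2rb, the shared receptor chain for GM-CSF and related cytokines, Cd44, an adhesion receptor, and Ly6a, an interferon-inducible surface antigen also used as a stem-cell marker, were likewise higher in every HF_Sugar library, by 0.5 ± 0.11, 0.62 ± 0.16 and 0.97 ± 0.24.

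Marker genes of the immune cells themselves were mostly higher in HF_Sugar, with groups that often overlapped. Over all genes 1.94% were higher at an unadjusted p below 0.05, the share beside which the counts here stand. Of 23 macrophage and dendritic cell genes 21 were higher in HF_Sugar (median 0.26), 2 at an unadjusted p below 0.05, and the median was 0.15 without HF_Sugar replicate 3 and 0.42 without HF_Sugar replicate 2. Adgre1, the F4/80 antigen of macrophages, stood at 0.78, 0.416 and 1.19 RPKM in HF_Sugar and at 0.477, 0.556 and 0.518 RPKM in HF. Its groups overlapped, as did those of Csf1r, the macrophage growth factor receptor (0.24 ± 0.17). Of 28 T cell and intraepithelial lymphocyte genes 23 were higher (median 0.21), 1 at an unadjusted p below 0.05, with medians of 0.08 without HF_Sugar replicate 3, 0.11 without HF replicate 2 and 0.32 without HF replicate 3. Cd8a, a coreceptor of cytotoxic T cells, was at 1.91, 1.8 and 2.35 RPKM in HF_Sugar and at 0.782, 1.31 and 1.84 RPKM in HF so that HF_Sugar replicate 2 lay just under HF replicate 3. Of 22 plasma cell and IgA genes 19 were higher (median 0.33, or 0.2 without HF_Sugar replicate 1). Jchain, which joins IgA monomers, was at 146, 87.9 and 194 RPKM in HF_Sugar and at 54, 86.3 and 94.6 RPKM in HF, with overlap. Of 23 B cell genes 17 were higher, with a median of 0.06 that was -0.06 without HF_Sugar replicate 1. All 11 chemokine receptors tested were higher in HF_Sugar (median 0.24, or 0.14 without HF replicate 1), 2 of them at an unadjusted p below 0.05.

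Interferon-response genes were higher in HF_Sugar nearly throughout. Of 46 tested, 43 were higher and 3 lower in HF_Sugar, 22 were higher at an unadjusted p below 0.05 against 1.94% of all genes, 30 had all HF_Sugar values above all HF values against 4.86% of all genes, and the median difference was 0.48. None passed the adjusted test. Leaving out any 1 of the 6 libraries gave medians between 0.38 and 0.59, and limma-voom on the recovered reads gave 0.82. Ifit3b, a tetratricopeptide protein of the antiviral response, was at 2, 1.77 and 1.87 RPKM in HF_Sugar and at 0.586, 0.856 and 0.866 RPKM in HF. Its reads were whole in all 6 libraries, 90, 97 and 61 in HF_Sugar and 28, 37 and 35 in HF, and its groups were apart (0.7 ± 0.14, adjusted p = 0.506). The interferon-inducible GTPases, which attack the vacuoles of intracellular pathogens, were led in HF_Sugar by replicate 3. Irgm2 was at 5.83, 7.3 and 13.2 RPKM in HF_Sugar and at 1.62, 4.39 and 3.09 RPKM in HF (1.25 ± 0.43), and Tgtp1 was at 1.67, 1.98 and 4.69 RPKM in HF_Sugar and at 0.692, 0.958 and 0.986 RPKM in HF (0.91 ± 0.28). Oas1a, a sensor of double-stranded RNA, was at 9.21, 6.86 and 8.08 RPKM in HF_Sugar and at 5.22, 5.47 and 5.22 RPKM in HF (0.5 ± 0.19). Isg15, a ubiquitin-like interferon product, was at 20.5, 14.3 and 24.9 RPKM in HF_Sugar and at 12.3, 12.2 and 10.1 RPKM in HF (0.7 ± 0.35). All these genes were apart between the groups. Irf7, a transcription factor that amplifies the interferon response, overlapped (0.25 ± 0.24).

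Promoter stretches of members of this group are shown because the group carries a shared element, the interferon-stimulated response element (ISRE), searched as the letters GAAA, any 2 bases and GAAA again, on both strands in the 250 bases before and 50 after each RefSeq gene start (GRCm38.p6). The letters stood in 22 of the 33 interferon-response genes with such a window (66.7%) and in 371 of 9878 tested genes (3.76%). The stretches of Ifit3b (chr19:34607761-34607820, plus strand), Ifit3 (chr19:34583365-34583424, plus strand), Irgm2 (chr11:58214888-58214947, plus strand) and Igtp (chr11:58199497-58199555, plus strand) lie within the first 200 bases before the start and are given 5′ to 3′, with the element in capitals.
Ifit3b: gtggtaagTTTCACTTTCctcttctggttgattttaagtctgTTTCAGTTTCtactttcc
Ifit3: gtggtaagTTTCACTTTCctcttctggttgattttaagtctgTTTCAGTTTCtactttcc
Irgm2: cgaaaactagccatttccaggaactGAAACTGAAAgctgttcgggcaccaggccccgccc
Igtp: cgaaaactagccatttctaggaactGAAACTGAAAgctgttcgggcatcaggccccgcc
Ifit3 and Igtp were added after values were seen, as the near copies of the genes named above. The stretches of Ifit3b and Ifit3 were identical over 60 of 60 bases and carried the element 2 times, read on the opposite strand. Those of Irgm2 and Igtp matched over 57 of 59 bases. Ifit3b and Ifit3, and likewise Tgtp1 and Tgtp2, are close copies, so how reads were divided between them is uncertain. A match of letters is a description and not evidence that a factor was bound.

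**Figure D2:**
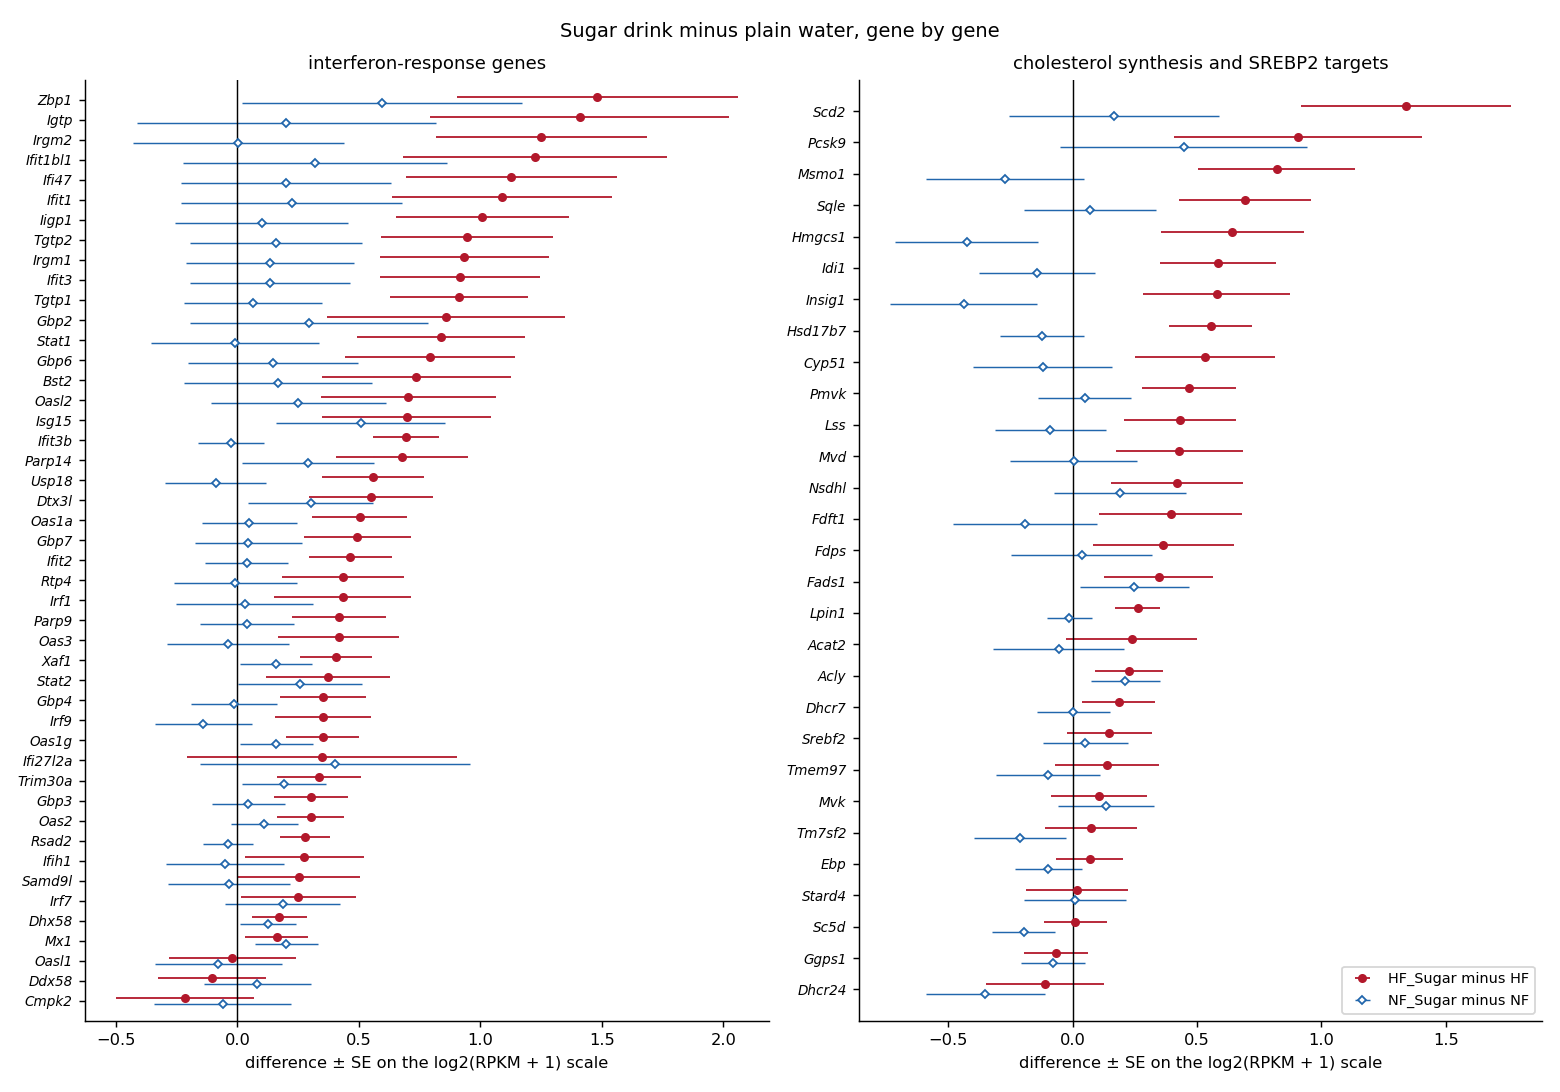
Difference on the log2(RPKM + 1) scale with its SE (horizontal axis) for each tested interferon-response gene (left, 46 genes) and cholesterol synthesis genes (right, 29 of the 31 tested), in red for HF_Sugar minus HF and in open blue for NF_Sugar minus NF. In HF_Sugar minus HF 43 of 46 and 27 of the 29 genes drawn lay above 0, and the whole groups had medians of 0.48 and 0.39; in NF_Sugar minus NF the medians were 0.12 and -0.08.

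Antigen presentation genes followed, with a wider spread among the HF mice. All 12 MHC class II genes tested were higher in HF_Sugar (median 0.89). Of these, 6 were higher without overlap, against 4.86% of all genes, and 0 at an unadjusted p below 0.05, against 1.94%. H2-Aa, a chain of the class II molecule, was at 324, 328 and 436 RPKM in HF_Sugar and at 70.9, 186 and 182 RPKM in HF (1.4 ± 0.73). Cd74, the invariant chain that escorts class II molecules, was at 1227, 1119 and 1526 RPKM in HF_Sugar and at 290, 727 and 839 RPKM in HF (1.18 ± 0.73). HF replicate 1 was the lowest library in both genes, and without it the median of the group was 0.52. Ciita, the master regulator of class II genes, overlapped between the groups (0.94 ± 0.45). Of 23 genes of MHC class I processing 20 were higher (median 0.17, or 0.1 without HF_Sugar replicate 3 and 0.37 without HF_Sugar replicate 2). Nlrc5, the regulator of class I genes, was at 1.76, 1.09 and 1.79 RPKM in HF_Sugar and at 0.35, 0.463 and 0.687 RPKM in HF (0.74 ± 0.21), and Psmb8, a subunit of the immunoproteasome, was at 45.8, 27.1 and 55.5 RPKM in HF_Sugar and at 16.1, 18.9 and 26.5 RPKM in HF (0.98 ± 0.44). Of 28 pattern-recognition receptors 22 were higher (median 0.19, or 0.07 without HF_Sugar replicate 3), led by Tlr3, the endosomal sensor of double-stranded RNA, at 4.98, 5 and 6.75 RPKM in HF_Sugar and 2.29, 4.47 and 2.73 RPKM in HF.

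Genes of the epithelial response to adherent microbes were mostly higher in HF_Sugar. Of 17 genes tested 16 were higher in HF_Sugar than in HF (median 0.79), 6 at an unadjusted p below 0.05 against 1.94% of all genes. For NF_Sugar minus NF 14 of the 17 were above 0 (median 0.53). There 0 were higher at an unadjusted p below 0.05, against 0.81% of all genes. Also 0 were higher without overlap, against 3.4% of all genes. With shares this low, counts of 0 among 17 genes say little. Reg3g, a lectin that kills Gram-positive bacteria, was at 4146, 1656 and 1106 RPKM in HF_Sugar and at 264, 803 and 922 RPKM in HF (1.75 ± 0.66). The nearest libraries, HF_Sugar replicate 3 and HF replicate 3, were close. Saa1, an acute-phase protein made by the epithelium, was at 222, 89.8 and 44.6 RPKM in HF_Sugar and at 1.15, 38.8 and 18.9 RPKM in HF (3.01 ± 1.11). Duox2, the epithelial oxidase that makes hydrogen peroxide, was at 50.1, 25.5 and 53.8 RPKM in HF_Sugar and at 6.36, 17.2 and 26.3 RPKM in HF (1.44 ± 0.47), and HF_Sugar replicate 2 overlapped HF replicate 3. HF replicate 1 held the lowest level of all 3 genes. Nos2, the inducible nitric oxide synthase, was at 27.1, 19.6 and 50.1 RPKM in HF_Sugar and at 8.04, 23.1 and 15.8 RPKM in HF, with overlap. Lcn2, which sequesters bacterial iron carriers, was low in all 6 libraries (0.33 ± 0.19). The products of Paneth cells, which release antimicrobial peptides at the crypt base, had no common direction, with 20 of 32 genes higher and a median of 0.05 that took either sign when a library was left out.

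Cholesterol synthesis genes were higher in HF_Sugar than in HF. Of 31 genes of the pathway and its regulator SREBP2, 29 were higher and 2 lower, 9 were higher at an unadjusted p below 0.05 against 1.94% of all genes, 10 were higher without overlap against 4.86% of all genes, and the median was 0.39. Hmgcs1, the synthase that makes HMG-CoA for sterols, was at 54.4, 70.8 and 59 RPKM in HF_Sugar and at 27.7, 46.5 and 44.1 RPKM in HF (0.64 ± 0.29). The groups were apart, with HF replicate 1 lowest. Sqle, the squalene oxidase, was at 20.6, 22.8 and 22.5 RPKM in HF_Sugar and at 8.25, 16.8 and 16 RPKM in HF (0.69 ± 0.27), and Hsd17b7, which acts late in the pathway, was at 5.14, 6.8 and 6.08 RPKM in HF_Sugar and at 2.96, 4.03 and 4.25 RPKM in HF (0.55 ± 0.17). The median of the group was 0.2 without HF_Sugar replicate 2 and 0.2 without HF replicate 1. On the normal-fat diet the median was -0.08, and the interaction had an unadjusted p below 0.05 in 5 of the 31 genes, against 2.54% of all genes, without any passing the adjusted test.

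The promoter of Hmgcs1 is shown as the member in which the classic sterol regulatory element was found. The element was searched as TCACNCCAC on both strands of the same windows and stood in 1 of 21 cholesterol synthesis genes with a window and in 136 of 9878 tested genes (1.38%). The stretch lies at chr13:119690189-119690247 on the plus strand (GRCm38.p6, RefSeq) and runs 5′ to 3′ with the element in capitals.
Hmgcs1: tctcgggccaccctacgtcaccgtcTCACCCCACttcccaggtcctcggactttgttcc
Other forms of the element were not searched, and no match says only that these letters are not in a window.

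Fatty acid synthesis genes had a smaller median. Of 19 genes of lipogenesis and desaturation 14 were higher (median 0.11, or -0.01 without HF_Sugar replicate 2 and -0.03 without the libraries that stood apart). At an unadjusted p below 0.05, 3 were higher, against 1.94% of all genes. Elovl6, which lengthens palmitate, was at 7.76, 8.48 and 8.79 RPKM in HF_Sugar and at 4.33, 4.29 and 7.12 RPKM in HF (0.6 ± 0.16). Scd2, a fatty acid desaturase, was at 25.1, 58.3 and 36.3 RPKM in HF_Sugar and at 7.8, 21.8 and 16.2 RPKM in HF (1.34 ± 0.42). Neither gene overlapped between the groups. Srebf1, which encodes the fatty acid regulator SREBP1, overlapped (-0.12 ± 0.14), as did Fasn, the fatty acid synthase (0.33 ± 0.22).

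Genes of lipid burning and transport lay in the other direction. Of 41 genes of fatty acid oxidation and other PPAR targets, 39 were lower and 2 higher in HF_Sugar, 7 were lower at an unadjusted p below 0.05 against 2.46% of all genes, 9 were lower without overlap against 5.31% of all genes, and the median was -0.28 (-0.18 without HF replicate 1). Hadh, of the mitochondrial oxidation cycle, was at 64.2, 52.8 and 61.6 RPKM in HF_Sugar and at 101, 72.9 and 70.1 RPKM in HF (-0.44 ± 0.18). Acads, the short-chain acyl-CoA dehydrogenase, was at 53.7, 50.2 and 54.7 RPKM in HF_Sugar and at 74.8, 66.8 and 63 RPKM in HF (-0.37 ± 0.15). Both were apart between the groups, as was Ucp2, a carrier of the mitochondrial inner membrane (-0.38 ± 0.14). Cpt1a, the gate of fatty acid entry into mitochondria, was at 31.8, 32.6 and 38.9 RPKM in HF_Sugar and at 34.3, 38.3 and 32.7 RPKM in HF, with overlap and a difference of -0.04 ± 0.16. Of 22 nuclear receptors 17 were lower (median -0.21, or -0.13 without HF replicate 2), among them Nr1h3, the oxysterol receptor LXR alpha, at 9.6, 9.57 and 11.5 RPKM in HF_Sugar and 19.9, 15.8 and 15.3 RPKM in HF (-0.69 ± 0.18). Of 17 genes of cholesterol uptake and efflux 15 were lower (median -0.15, from -0.23 without HF_Sugar replicate 1 to -0.09 without HF replicate 1).

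Apolipoproteins and fat uptake were lower with more spread. Of 18 genes of apolipoproteins and chylomicron assembly 14 were lower (median -0.24), 1 of them at an unadjusted p below 0.05, against 2.46% of all genes. The median ran from -0.4 without HF replicate 2 to -0.14 without HF replicate 1 or HF_Sugar replicate 3. Apoa4, a chylomicron protein, was at 358, 540 and 191 RPKM in HF_Sugar and at 1793, 285 and 683 RPKM in HF, with overlap. Of 26 genes of fatty acid uptake and triglyceride resynthesis 22 were lower (median -0.19, from -0.31 without HF replicate 2 to -0.12 without HF replicate 1). Gpd1, which makes the glycerol backbone, was at 93.8, 106 and 88.8 RPKM in HF_Sugar and at 151, 136 and 124 RPKM in HF, without overlap (-0.52 ± 0.17). Fabp1, the fatty acid binding protein of the proximal intestine, was at 30.8, 27 and 10.9 RPKM in HF_Sugar and at 281, 4.6 and 111 RPKM in HF. The libraries high in Fabp1, HF replicates 1 and 3, were those high in Lct and Gata4. What part such regional genes had in the lower values of absorptive genes was not tested.

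Sugar handling was lower rather than higher in the mice given the drink on high fat. Of 25 genes of sugar digestion, transport and fructose breakdown, 21 were lower and 4 higher, 7 were lower and 1 higher at an unadjusted p below 0.05 against 2.46% and 1.94% of all genes, and the median was -0.3 (-0.18 without HF_Sugar replicate 3). Treh, which splits trehalose, was at 24.3, 19.1 and 21.8 RPKM in HF_Sugar and at 57.5, 43.2 and 34.2 RPKM in HF (-1 ± 0.29). The groups were apart. Slc2a5, the fructose transporter GLUT5, was at 22.7, 16.9 and 11.9 RPKM in HF_Sugar and at 33.5, 28.8 and 22.3 RPKM in HF, where HF replicate 3 fell just inside the HF_Sugar range (-0.72 ± 0.27). On normal fat the difference of Slc2a5 was 0.51, and the interaction was -1.23 ± 0.38 without passing the adjusted test. Khk, which phosphorylates fructose, overlapped at 82.3, 55.6 and 52.4 RPKM in HF_Sugar and 160, 70.2 and 80.7 RPKM in HF, and Slc5a1, the sodium-glucose transporter SGLT1, overlapped at 218, 232 and 165 RPKM in HF_Sugar and 257, 178 and 241 RPKM in HF. Slc5a4a and Slc5a4b, related proteins of the same family, were lower without overlap (-1.11 ± 0.32 and -1.97 ± 0.64). These are close copies, so the division of reads between them is uncertain. Sis, the sucrase-isomaltase that splits sucrose, was at 118, 108 and 94.2 RPKM in HF_Sugar and at 138, 131 and 123 RPKM in HF (-0.3 ± 0.22). The groups were apart, but the difference was not far above its SE. The median of the group was 0.05 on normal fat.

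All 21 brush-border peptidases and hydrolases tested were lower in HF_Sugar (median -0.36), 5 of them at an unadjusted p below 0.05 against 2.46% of all genes and 6 without overlap against 5.31% of all genes. Ace, the angiotensin-converting peptidase, was at 71, 46.8 and 58.1 RPKM in HF_Sugar and at 129, 74.8 and 87.5 RPKM in HF (-0.71 ± 0.24). Enpp7, which digests sphingomyelin, was at 71.4, 32.9 and 49.9 RPKM in HF_Sugar and at 458, 136 and 200 RPKM in HF (-2.23 ± 0.83). Dpp4, a peptidase that trims incretin hormones, was almost level (-0.03 ± 0.17). Medians with 1 library left out ran from -0.47 to -0.26. Of 20 amino acid and peptide transporters 12 were lower (median -0.15, or -0.06 without HF_Sugar replicate 3, -0.09 without HF replicate 3, -0.23 without HF_Sugar replicate 1 and -0.33 without the libraries that stood apart), with Slc15a1, the peptide transporter, at 36.7, 25.9 and 32.7 RPKM in HF_Sugar and at 106, 31.1 and 63 RPKM in HF. At an unadjusted p below 0.05, 5 of the 20 transporters were lower, against 2.46% of all genes, and 0 were higher. Bile acid genes had no common direction, with 8 of 16 higher and 8 lower. Slc10a2, the ileal bile acid importer, was at 82.6, 123 and 84.6 RPKM in HF_Sugar and at 64.4, 80.7 and 89.5 RPKM in HF. Fgf15, the hormone that restrains bile acid synthesis in the liver, was at 58.5, 45.3 and 66.7 RPKM in HF_Sugar and at 31.7, 43 and 17.1 RPKM in HF, without overlap but with a wide SE (0.94 ± 0.79).

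**Figure D3:**
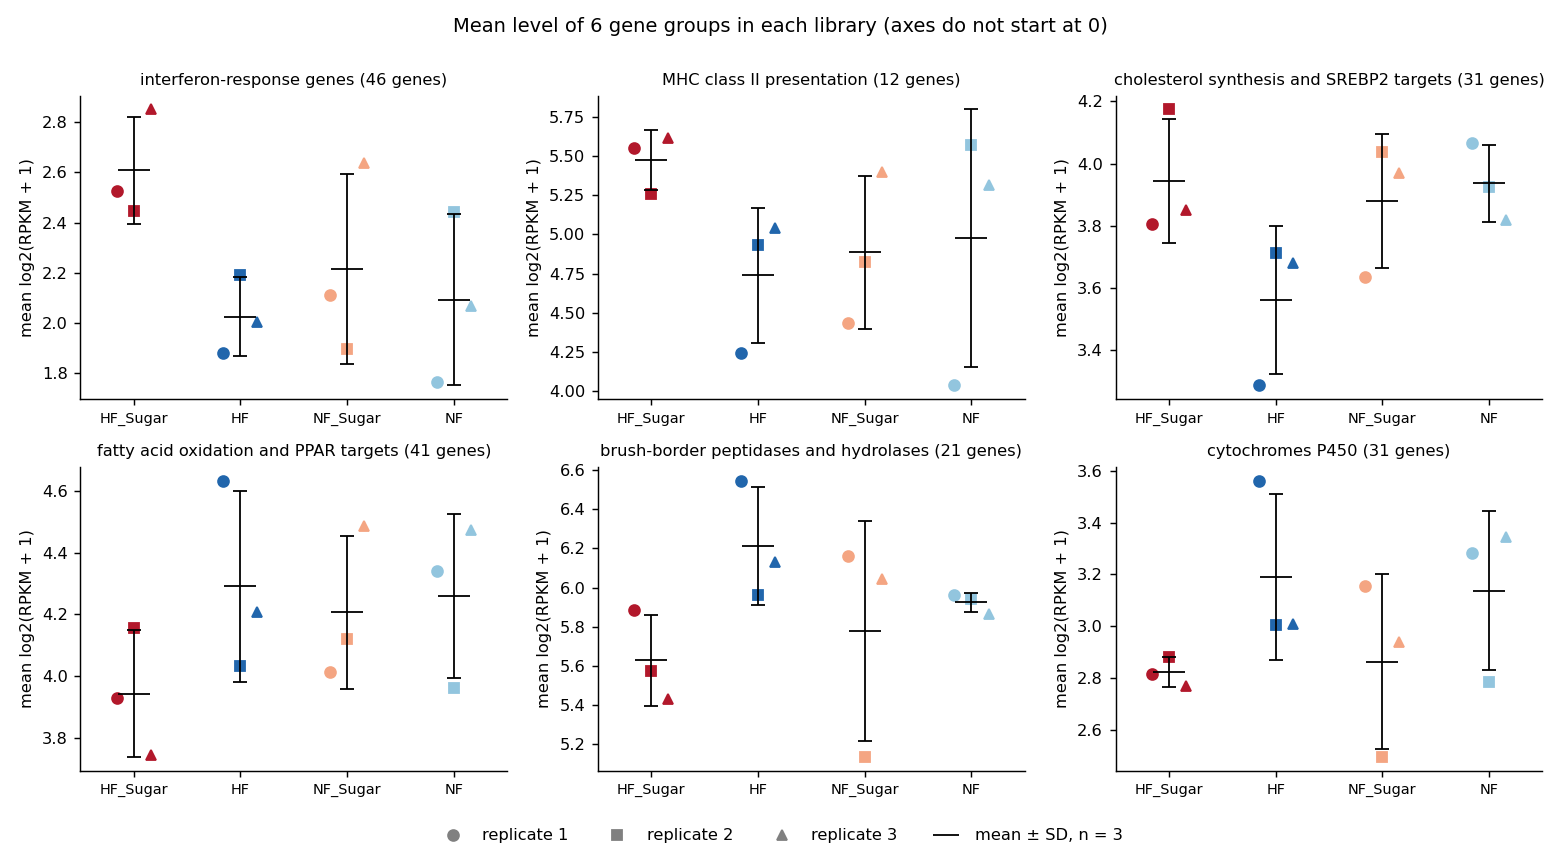
Mean log2(RPKM + 1) over the genes of 6 groups in each library, with symbols for replicates and bars for the mean ± SD of 3 libraries; the axes do not start at 0. In the interferon, MHC class II, cholesterol synthesis, brush-border and cytochrome P450 panels the HF_Sugar libraries lie wholly to 1 side of the HF libraries, while in the fatty acid oxidation panel HF_Sugar replicate 2 overlaps HF replicate 2.

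Genes that metabolise drugs and other foreign compounds were lower. Of 31 cytochromes P450, enzymes that oxidise foreign compounds and lipids, 24 were lower and 7 higher, 10 were lower at an unadjusted p below 0.05 against 2.46% of all genes, 11 were lower without overlap against 5.31% of all genes, and the median was -0.38 (-0.24 without HF replicate 1). Cyp2d26, of the CYP2D subfamily, was at 27.5, 26.6 and 29 RPKM in HF_Sugar and at 130, 56.2 and 61.9 RPKM in HF (-1.45 ± 0.42). Cyp2j6, of a subfamily that oxidises arachidonic acid, was at 11.5, 12 and 15.4 RPKM in HF_Sugar and at 40.8, 18.6 and 19.6 RPKM in HF (-0.9 ± 0.3). HF replicate 1 was far above the other HF libraries in both genes. Cyp2b10, a target of the xenobiotic receptor CAR, overlapped at 0.736, 0.0864 and 0.116 RPKM in HF_Sugar and 5.98, 0.307 and 1.76 RPKM in HF, and CAR itself, Nr1i3, was at 1.64, 1.87 and 1.49 RPKM in HF_Sugar and at 3.79, 2.2 and 2.91 RPKM in HF (-0.56 ± 0.18). Of 13 carboxylesterases 12 were lower, 6 at an unadjusted p below 0.05 against 2.46% of all genes, with a median of -0.56 that lay between -0.6 and -0.42 with 1 library left out. Ces2g had little spread, at 1.23, 1.27 and 1.07 RPKM in HF_Sugar and at 2.4, 1.97 and 2.31 RPKM in HF (-0.56 ± 0.11, adjusted p = 0.506). Ces2e, far more abundant, was at 172, 169 and 178 RPKM in HF_Sugar and at 280, 224 and 203 RPKM in HF (-0.44 ± 0.2). Of 37 conjugating enzymes 34 were lower (median -0.25), but the median was -0.07 without HF replicate 1 and -0.41 without HF replicate 2.

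Among genes outside these groups, those with the smallest unadjusted p and a lower level included transporters and enzymes. Slc6a4, the serotonin transporter that clears serotonin into enterocytes, was at 7.92, 6.52 and 8.97 RPKM in HF_Sugar and at 13.7, 13 and 14 RPKM in HF (-0.75 ± 0.12, adjusted p = 0.364). The difference on normal fat was 0.03, and the interaction was -0.78 ± 0.17. The HF_Sugar libraries overlapped the NF libraries, at 9.65, 8.14 and 10.3 RPKM, and the HF libraries lay above both. Slc28a1, a nucleoside transporter, was at 0.813, 0.532 and 1.77 RPKM in HF_Sugar and at 19.1, 4.03 and 6.57 RPKM in HF (-2.21 ± 0.47). Susd2, a membrane protein, was at 26.9, 26.5 and 23.3 RPKM in HF_Sugar and at 85.2, 58.1 and 41 RPKM in HF (-1.18 ± 0.26). These genes were apart between the groups, as the rule that named genes by smallest p required. So were Dao, which oxidises D-amino acids (-0.77 ± 0.16), Faah, which breaks down endocannabinoids (-0.79 ± 0.19), Pdk2, a kinase that restrains pyruvate dehydrogenase (-0.61 ± 0.15), Hdac11, a deacetylase (-0.75 ± 0.18), Acsf3, a malonyl-CoA synthetase of mitochondria (-0.52 ± 0.11), and Isoc2b (-0.55 ± 0.1). On the higher side, Slc30a1, which exports zinc from cells, was at 15.2, 13.3 and 17.7 RPKM in HF_Sugar and at 6.15, 9.34 and 6.82 RPKM in HF (0.96 ± 0.2), with a difference of -0.1 on normal fat.

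Clock genes were split. Of 19 tested 11 were lower and 8 higher, and the median was -0.17 (-0.03 without HF replicate 2). At an unadjusted p below 0.05, 4 were lower and 2 higher, against 2.46% and 1.94% of all genes. Nr1d1, the repressor REV-ERB alpha, was at 19.1, 22.7 and 24.1 RPKM in HF_Sugar and at 44.3, 40.7 and 42.3 RPKM in HF (-0.94 ± 0.2, adjusted p = 0.698). Dbp, an output gene of the clock, was at 1.94, 1.09 and 4.32 RPKM in HF_Sugar and at 18.4, 5.68 and 7.21 RPKM in HF (-1.68 ± 0.63). Both were lower without overlap. Cry1, a repressor of the clock, was higher without overlap, at 6.59, 5.87 and 4.25 RPKM in HF_Sugar and 3.32, 3 and 3.6 RPKM in HF (0.58 ± 0.21), and so was Nfil3, a repressor of Dbp targets, at 16.1, 12 and 10.2 RPKM in HF_Sugar and 3.1, 9.43 and 7.37 RPKM in HF (0.92 ± 0.44). Arntl, the clock activator BMAL1, overlapped at 1.7, 3 and 1.87 RPKM in HF_Sugar and 0.684, 1.91 and 1.1 RPKM in HF (0.52 ± 0.23). Ciart, a further clock repressor, was low throughout (-0.35 ± 0.15). The hour at which each mouse was killed is not given in the sources used here, and its part in these values was not tested.

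The E-box, the letters CACGTG to which the clock activators bind, stood in 4 of 15 clock genes with a window (26.7%) and in 1129 of 9878 tested genes (11.4%). Stretches of the windows of Ciart (chr3:95882261-95882350, minus strand) and Cry1 (chr10:85185082-85185141, minus strand) are shown, with E-boxes in capitals, since the genes differed in the opposite direction while holding the same letters (GRCm38.p6, RefSeq, 5′ to 3′).
Ciart: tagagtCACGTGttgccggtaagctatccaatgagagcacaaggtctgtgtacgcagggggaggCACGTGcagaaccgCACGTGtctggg
Cry1: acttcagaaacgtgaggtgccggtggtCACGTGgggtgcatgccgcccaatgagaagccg

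Nutrient sensing gave few differences. Of 13 taste receptor and tuft cell genes 5 were higher and 8 lower, and only Tas1r3 was at an unadjusted p below 0.05, against 4.4% of all genes. Tas1r3, a subunit of the sweet and umami receptors, was at 0.956, 0.646 and 0.711 RPKM in HF_Sugar and at 0.238, 0.381 and 0.254 RPKM in HF (0.45 ± 0.1, adjusted p = 0.681). The groups were apart, but the reads in HF_Sugar were 75.85, 62.3 and 40.77, not whole. Of the 6 libraries, Tas1r3 reached the filter's 0.5 RPKM in HF_Sugar only. The sweet-receptor partner Tas1r2 and the umami partner Tas1r1 were at or below 0.102 RPKM in all 6 libraries and were not tested. Trpm5, the channel downstream of these receptors, was level (-0.1 ± 0.13). Of 15 gut hormone genes 11 were lower and 0 were at an unadjusted p below 0.05, and the median of -0.23 was -0.04 without HF_Sugar replicate 2. Gcg, the source of GLP-1, was at 13.5, 17.3 and 25.1 RPKM in HF_Sugar and at 14.7, 14.7 and 14.3 RPKM in HF, with overlap and a 7-digit value in HF_Sugar replicate 2. Of 34 mTOR pathway and lipin genes 15 were higher and 19 lower. Lpin1, a phosphatidate phosphatase, was at 0.845, 1.1 and 0.947 RPKM in HF_Sugar and at 0.476, 0.675 and 0.742 RPKM in HF (0.26 ± 0.09), without overlap.

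The groups described next had few members at an unadjusted p below 0.05, a level at which 1.94% of all genes were higher and 2.46% lower. Of 33 cell cycle genes 31 were higher (median 0.19, or 0.1 without HF_Sugar replicate 3), with 2 at an unadjusted p below 0.05. Mki67, a marker of dividing cells, overlapped (0.2 ± 0.17). Of 25 tight junction genes 17 were lower (median -0.06, or -0.01 without HF replicate 2). Cldn2, the claudin of leaky junctions, was the gene of this group at an unadjusted p below 0.05, at 50.7, 76.5 and 73.9 RPKM in HF_Sugar and 31.6, 40.5 and 51.9 RPKM in HF, where HF replicate 3 lay just above HF_Sugar replicate 1. Goblet cell genes had a median of 0.1 (0.04 without HF replicate 1). Stem cell genes had a median of 0.07, which was 0.01 without HF_Sugar replicate 3 or HF replicate 3, 0.16 without HF_Sugar replicate 1 and 0.15 without HF replicate 2. The medians of smooth muscle genes (0.05) and of enteric neuron and glia genes (-0.02) took either sign when a library was left out, from -0.22 without HF_Sugar replicate 2 to 0.22 without HF_Sugar replicate 3 and from -0.12 without HF_Sugar replicate 2 to 0.06 without HF_Sugar replicate 3. Of 65 ribosomal protein genes 55 were lower (median -0.19), with medians of 0.06 without HF_Sugar replicate 2, 0.04 without HF replicate 1 and -0.5 without HF replicate 2. Some groups not described had more members at that level. Hypoxia and glycolysis had 4 of 30 genes higher, and blood and lymphatic endothelium had 3 of 23 higher. Targets of the carbohydrate-sensing factor ChREBP with gluconeogenesis had 3 of 26 lower.

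**Figure D4:**
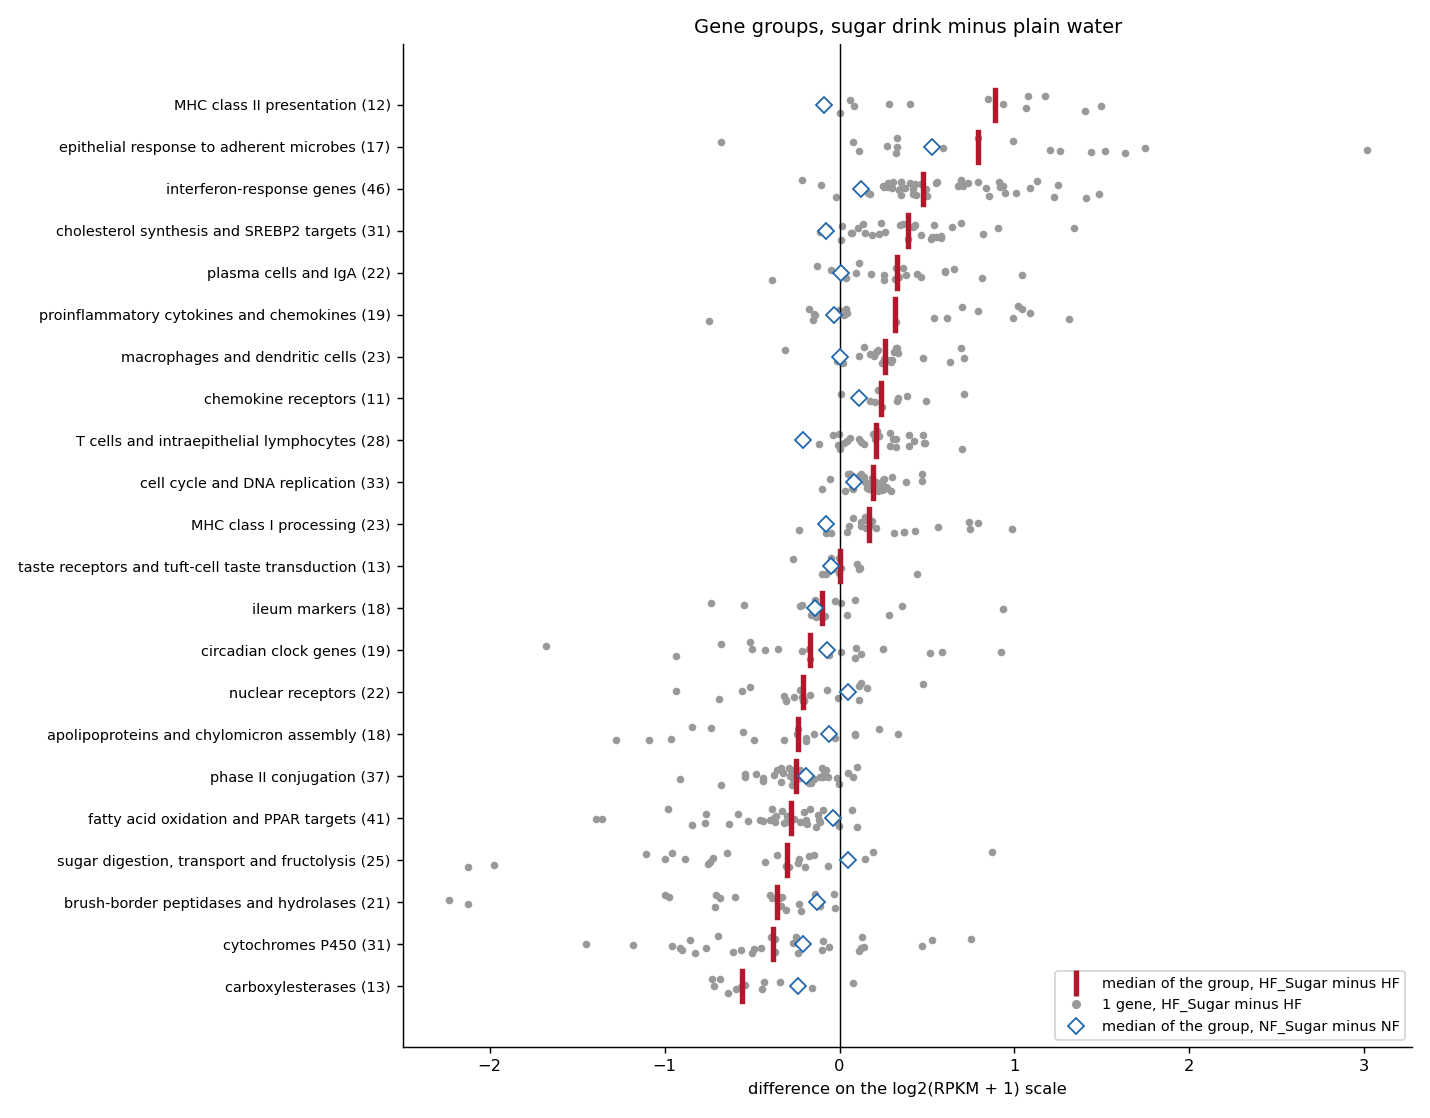
Differences on the log2(RPKM + 1) scale for the genes of each group drawn, with grey points for single genes and red bars for the group median of HF_Sugar minus HF and open diamonds for the median of NF_Sugar minus NF. The number of genes tested is in brackets. HF_Sugar minus HF medians ran from 0.89 for MHC class II genes to -0.56 for carboxylesterases.

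The drink gave other medians on normal fat, but the difference between the diets passed the adjusted test for no gene. The median was -0.09 for MHC class II, -0.03 for cytokines and -0.21 for T cell genes, all above 0 on high fat. It was -0.04 for fatty acid oxidation, -0.13 for brush-border hydrolases, -0.21 for cytochromes P450 and -0.24 for carboxylesterases, which lay on the same side as on high fat. By the rule for named genes, those with the smallest unadjusted interaction p above 0 were Il1b, Prr3, Slc30a1 and Ifit3b, and below 0 they were Slc6a4, Isoc2b, Pomk and Ppm1j. Ppm1j, a protein phosphatase, was at 1.74, 1.01 and 0.812 RPKM in HF_Sugar and at 4.57, 2.68 and 3.3 RPKM in HF, with an interaction of -1.42 ± 0.38.

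**Figure D5:**
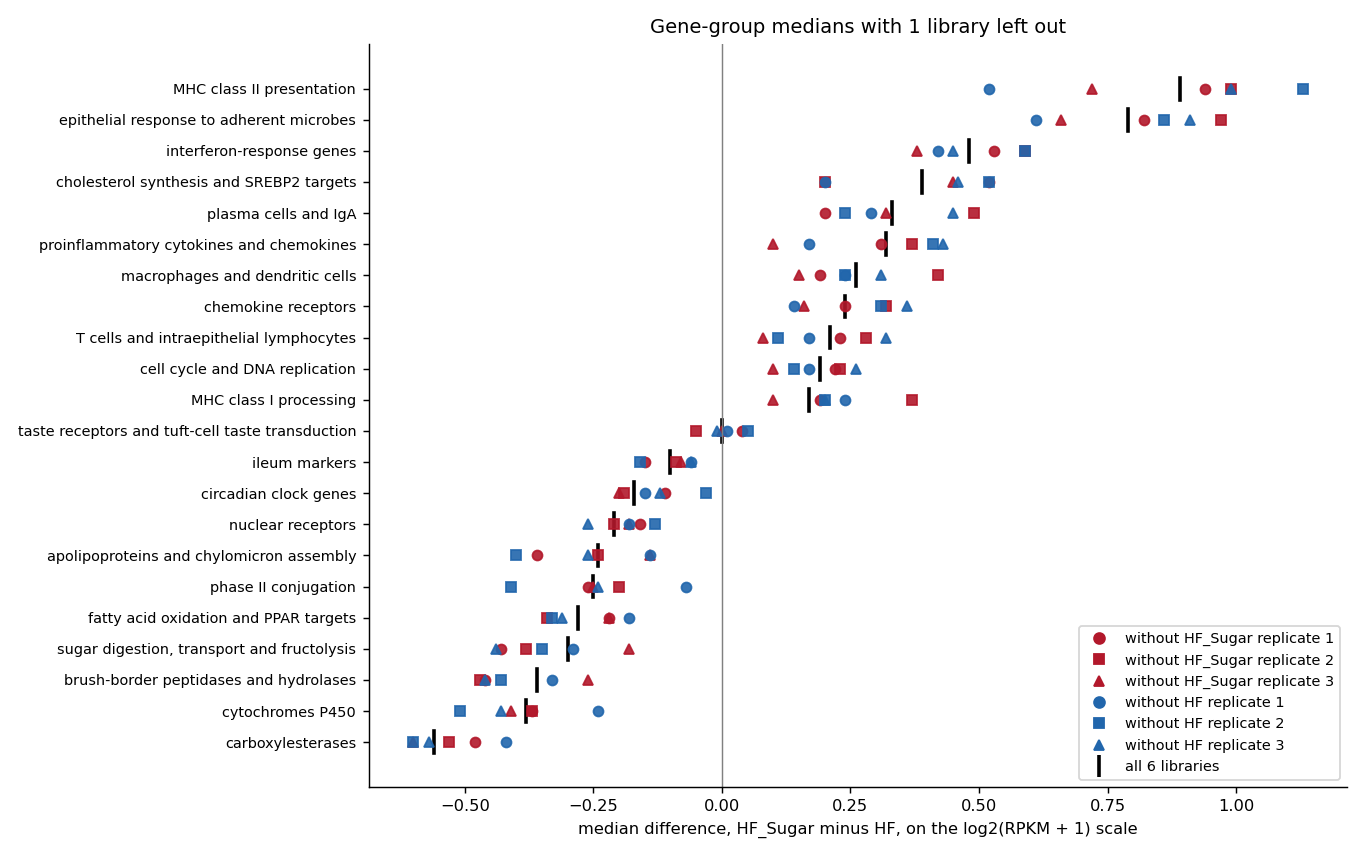
Median difference between HF_Sugar and HF on the log2(RPKM + 1) scale for each gene group (rows), with all 6 libraries (black bar) and with each library left out in turn (symbols). The interferon median stayed between 0.38 and 0.59 and the carboxylesterase median between -0.6 and -0.42, while the MHC class II median came to 0.52 without HF replicate 1.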

How the data were processed

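RNA of 12 ilea was sequenced on the Ion Proton after Ion Total RNA-Seq library preparation. The study's methods state that mRNA was first isolated from the total RNA and depleted of ribosomal RNA. The authors aligned reads with STAR to mm10 and quantified Ensembl transcripts in Partek Flow, the build and Partek being those the submitters' processing notes name, and deposited 1 RPKM value per gene and library. The unit was judged from the values. The 12 deposited files per library held the same values as the series table, and 26 names that were bare numbers, which name no gene, were left out, leaving 44205 genes. Recovered reads per library were taken from the steps between low RPKM values (85.84% to 87.68% of low values were whole within 0.03 of a read) and ran from 15260000 to 38970000 over the 12 libraries, which limits low genes most.

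RPKM values were scaled between libraries by a trimmed mean of M values, and log2(RPKM + 1), with a pseudocount of 1, was tested with limma 3.58.1 in R 4.3.3 on all 12 libraries with 4 groups. A gene entered the test if no fewer than 3 libraries held it at 0.5 RPKM or above. Tas1r3 was to be kept in any case, and it met this filter. The filter left 17662, and Benjamini-Hochberg adjustment ran over all of them. Of the 6 libraries compared, some genes reached 0.5 RPKM in HF_Sugar only, Tas1r3, Ifng and Ccl2 among them. The median SE of a difference was 0.176. P-values set a difference against the spread between mice of a group, which was estimated over all 4 groups and moderated across genes. The count tests used in the study need counts and were not run. In data simulated for HF_Sugar against HF (17679 genes in the fit), 92 of 100 genes changed by 2 on the log2 scale were called, 18 of 100 changed by 1, and 10 of 17479 unchanged genes. These changes were set on the reads, and their median estimates on the log2(RPKM + 1) scale were 1.63 and 0.65.

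Replicate numbers are shared by the groups in the labels. Deviations of HF_Sugar and HF libraries with the same number correlated at 0.487, 0.557 and 0.131. Those with different numbers ran from -0.502 to 0.123. Both libraries numbered 2 were among those that stood apart on the first principal component. The match was seen in the data and not taken from a stated litter or batch. A pairing is thus not established, so the main fit held no block and the block was an alternative. NF_Sugar and NF with the same number gave -0.121, -0.415 and 0.259, while NF_Sugar replicate 1 with NF replicate 2 reached 0.559.

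The genes and the 65 gene lists, holding 1307 tested genes, were chosen with earlier results of these data known. Named genes were the 12 genes in each direction with the smallest unadjusted p that did not overlap between the groups and averaged at least 1 RPKM, the 4 in each direction with the smallest interaction p (both without predicted genes, small RNA genes and antigen receptor segments), set anchors and the 4 smallest p of each list, all members of lists of 12 or fewer, and genes the study discusses. Alternatives were other scalings, filters, pseudocounts, limma-voom on recovered reads, blocks, the authors' thresholds, and libraries left out. For each comparison of a sugar drink with plain water, the block was fitted on the 6 libraries of its groups alone. Promoter windows came from RefSeq (GRCm38.p6), found for 9878 of the genes tested. Some genes of these lists enter the counts and medians but are not reported here.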

Additional observations from a re-analysis of the deposited data

How the results depend on the processing

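Il1b stayed the single called gene under other scalings (adjusted p = 0.0463 without scaling, 0.0321 with upper-quartile and 0.0355 with median-ratio scaling) and among protein-coding genes alone (0.00444). Called genes numbered 0 under a filter of any value above 0 in 3 libraries (Il1b adjusted p = 0.113), pseudocounts of 0.1 (0.512) and 0.5 (0.115), limma-voom (0.319), the 6 libraries alone (0.644), the replicate block (0.372), a covariate for the libraries that stood apart (0.0688), without those libraries (0.584), without genes with irregular values and with a mean of at least 5 RPKM, which both remove Il1b, at a 2-fold and 0.01 threshold, and, from 0 to 0, with each library left out. Genes at an unadjusted p below 0.05, 777 at first, numbered 1466 with the filter above 0, 333 with the mean of 5 RPKM and 1640 with the replicate block, and from 390 (without HF replicate 1) to 1065 (without HF replicate 2) with 1 library left out. NF_Sugar against NF had 4 called genes with the filter above 0 and 0 to 1 with 1 library left out, and 1076, 84, 551 and 712 genes at an unadjusted p below 0.05 with the filter above 0, the mean of 5 RPKM, the covariate and without the libraries that stood apart, or 290 to 581 with 1 library left out. The interaction had 0 to 1 called genes with 1 library left out, the 1 without HF replicate 1, and 1173 genes at an unadjusted p below 0.05 with the filter above 0, 142 with the mean of 5 RPKM and 352 to 654 with 1 library left out. Of the medians of gene lists, 1244 of the alternative values moved by less than the spread between replicates and 54 by more. Among single genes named above, none of which passed the test, the sign of the difference turned for Cpt1a (0.01 with the mean of 5 RPKM, 0.05 without the libraries that stood apart, -0.1 to 0.03 with 1 library left out), Dpp4 (0.01 with upper-quartile scaling, 0.02 with the mean of 5 RPKM, -0.1 to 0.07 with 1 library left out), and with 1 library left out for Car1 (-0.05 to 2.47), Slc5a1 (-0.3 to 0.04) and Trpm5 (-0.18 to 0). The causes were not tested. In the simulated data, with 3 libraries a group, a change of 1 on the log2 scale was mostly not called. The simulation gave every gene the same spread and held no structure between libraries. It therefore does not measure what the test could call in these mice.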

Other observations

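The following genes were not described above. C3 was named by the rule, as a member of the fibroblast and matrix list, and the others were chosen after their values were seen. Il7, a survival cytokine for lymphocytes made by epithelium and stroma, stood at 0.99, 0.987 and 0.759 RPKM in HF_Sugar and at 0.222, 0.27 and 0.349 RPKM in HF, without overlap (difference 0.57 ± 0.1 on the log2 scale, adjusted p = 0.429). C3, the central complement component, was at 5.67, 6.24 and 7.21 RPKM in HF_Sugar and at 3.25, 3.45 and 4.32 RPKM in HF (0.65 ± 0.16, adjusted p = 0.984). Fcgr2b, the inhibitory receptor for IgG, was at 0.851, 1.02 and 1.17 RPKM in HF_Sugar and at 0.556, 0.551 and 0.47 RPKM in HF (0.39 ± 0.09, adjusted p = 0.871). All 3 genes were higher in each HF_Sugar library than in any HF library, and no irregular value was found in them. Of these libraries, Il7 reached the filter's 0.5 RPKM in HF_Sugar only.

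Maoa, which breaks down serotonin after its uptake, was at 33.9, 43.9 and 52.2 RPKM in HF_Sugar and at 92.6, 62.5 and 59.5 RPKM in HF (-0.71 ± 0.21), lower without overlap as the serotonin transporter was. On normal fat it was at 51.6, 40.8 and 41.7 RPKM in NF_Sugar and at 54.7, 57.8 and 73.2 RPKM in NF (-0.46 ± 0.21). 2210407C18Rik was at 15.1, 12.3 and 20.2 RPKM in HF_Sugar and at 3.68, 6.45 and 7.71 RPKM in HF (1.29 ± 0.27, adjusted p = 0.665).

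Snhg7, a host gene of small nucleolar RNAs, was listed at 0.0038, 0 and 0 RPKM in HF_Sugar and at 3.01, 0.998 and 0.712 RPKM in HF, and at no more than 0.0071 RPKM in the 6 libraries on normal fat. The row of Cd40, alone in the table, carried a stray mark in a column without a name.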
